A study of Mus musculus with 9 samples.

Results

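The hypoxia response and its regulators were followed in Lewis lung carcinoma cells growing in the lung, under the skin and in culture dishes. The set holds genes that cells switch on when oxygen is low, the subunits of the transcription factor HIF (hypoxia-inducible factor) and the enzymes that sense oxygen and restrain it. Members were chosen by name, as array features whose platform annotation carries 1 of 32 listed symbols. The rule itself uses no measured value, but the list was drawn up with earlier results of these data known. Of the 32, 30 were matched, out of 19505 genes measured. Ero1l and Loxl2 had no feature under those symbols. Ero1l is today called Ero1a, and that gene was measured but is kept out of the counts.

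All 9 samples were RNA of GFP-labelled 3LL cells, which are the Lewis lung carcinoma (LLC) line, a transplantable lung tumour of C57/BL6 mice. The lung group (n = 3) was transplanted into the lung and the subcutaneous group (n = 3) under the skin, and in both the GFP-positive cells were isolated after 7 days. The dish group (n = 3) was grown as a monolayer for 7 days, and its labels name no isolation step, so the effect of isolating cells cannot be told apart from that of growth in the mouse when either is set against the dish. The series text calls the lung model BLM, without saying what the letters stand for, and a comparison with the lung therefore covers both the site and whatever BLM adds. The cells are 1 line, and the labels do not state that replicates were separate mice or cultures. The p-values below rest on the spread among the deposited samples alone, and part of it may be technical.

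HIF is a pair made of an oxygen-labile alpha subunit (encoded by Hif1a, Epas1 or Hif3a) and a stable partner, Arnt. When oxygen is plentiful the prolyl hydroxylases Egln1, Egln2 and Egln3 modify the alpha subunit, the ubiquitin ligase subunit Vhl then binds it and it is destroyed, while Hif1an blocks its contact with coactivators. When oxygen is low the alpha subunit persists, binds DNA at the core letters ACGTG or GCGTG and raises genes for anaerobic metabolism, mitophagy, collagen modification and its own hydroxylase Egln3. Solid tumours are known for this response because they outgrow their blood supply. Much of HIF control acts on the protein, which an array of RNA does not measure.

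The promoter sequences show where the core letters stand in members that moved in different ways between the groups. RefSeq windows (assembly GRCm38.p6) of 300 bases, 250 before the start of a transcript and 50 from the start on, were found for 24 of the 30 measured members. At least 1 of the cores ACGTG and GCGTG, searched on both strands, stood in a window of 22 of these 24 genes, and in 29 of their 35 windows (82.9%), against 43.8% of all 32851 windows in the table. ACGTG was in 48.6% of the members' windows and 19.6% of all windows, and GCGTG in 65.7% and 32.4%, windows with both cores being counted under each. Matches can overlap: the palindrome CACGTG holds ACGTG on both strands and counts as 2 matches. A match describes letters and is not evidence of binding. The members were listed as HIF targets and regulators, and all windows were not matched to theirs in base composition. The shares are therefore descriptive and test nothing. No window was found for Ndrg1, Bnip3l, Plod2, Lox, Epas1 and Bhlhe40. The 250 bases upstream of the start are given here for the 3 prolyl hydroxylases, of which Egln3 was higher, Egln2 lower and Egln1 not called in subcutaneous cells against dish cells, and for Bnip3, Higd1a and P4ha2. Each is written 5′ to 3′ on the strand of the gene, with matches to either core on either strand in capitals.
Egln3, chr12:54203875-54204124, minus strand: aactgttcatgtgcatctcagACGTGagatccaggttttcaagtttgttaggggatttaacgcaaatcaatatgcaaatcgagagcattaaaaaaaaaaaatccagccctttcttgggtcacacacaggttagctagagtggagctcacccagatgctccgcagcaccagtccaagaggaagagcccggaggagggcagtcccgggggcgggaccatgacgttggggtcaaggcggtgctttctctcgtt
Egln1, chr8:124949255-124949504, minus strand: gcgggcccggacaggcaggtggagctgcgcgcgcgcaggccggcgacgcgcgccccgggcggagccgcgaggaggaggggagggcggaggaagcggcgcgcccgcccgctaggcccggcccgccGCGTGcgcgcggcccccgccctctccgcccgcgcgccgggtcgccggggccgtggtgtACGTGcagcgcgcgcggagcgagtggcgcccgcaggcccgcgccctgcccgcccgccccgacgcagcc
Egln2, chr7:27166803-27167052, minus strand: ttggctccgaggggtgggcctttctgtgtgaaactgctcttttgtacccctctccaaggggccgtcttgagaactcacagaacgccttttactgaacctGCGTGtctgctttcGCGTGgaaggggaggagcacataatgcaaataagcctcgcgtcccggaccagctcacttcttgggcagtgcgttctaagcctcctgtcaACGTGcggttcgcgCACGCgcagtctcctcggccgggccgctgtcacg
Bnip3, chr7:138909507-138909756, minus strand: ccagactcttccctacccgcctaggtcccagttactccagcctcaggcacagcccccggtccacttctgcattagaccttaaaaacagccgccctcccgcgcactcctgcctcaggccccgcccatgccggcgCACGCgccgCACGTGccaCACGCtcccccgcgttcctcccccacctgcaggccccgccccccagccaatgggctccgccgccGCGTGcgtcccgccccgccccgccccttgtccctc
Higd1a, chr9:121857797-121858046, minus strand: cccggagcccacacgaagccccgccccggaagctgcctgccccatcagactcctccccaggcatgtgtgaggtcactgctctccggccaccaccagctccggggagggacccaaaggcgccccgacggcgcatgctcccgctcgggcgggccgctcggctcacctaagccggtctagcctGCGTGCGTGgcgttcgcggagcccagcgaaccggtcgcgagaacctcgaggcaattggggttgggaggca
P4ha2, chr11:54100674-54100923, plus strand: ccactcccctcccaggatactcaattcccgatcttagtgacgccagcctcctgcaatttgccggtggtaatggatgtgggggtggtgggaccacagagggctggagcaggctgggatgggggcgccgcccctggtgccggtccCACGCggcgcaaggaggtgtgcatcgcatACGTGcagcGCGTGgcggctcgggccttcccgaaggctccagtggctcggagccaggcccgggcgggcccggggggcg

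In these stretches Bnip3 had 5 matches, Egln2 had 4, P4ha2 had 3, Egln1 and Higd1a had 2 each, and Egln3 had 1, an ACGTG whose first base lies 229 bases before the start.

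Values are log2 signals as the authors deposited them, and a difference of 1 stands for a change of 2-fold. Genes were tested with limma over all 19505 genes on the 9 arrays together, and "rose", "fell" and "called" refer to an adjusted p under 0.05. Background on each array was set at the 90th percentile of its negative control features (7.20 to 7.73). By it, 15 of the 30 members were above background on all 9 arrays and 8 on none. The arrays differed beyond their groups: 33 listed genes whose mRNAs are very long averaged 9.29, 9.49 and 8.17 on lung replicates 1, 2 and 3, against 7.86 to 8.30 on the subcutaneous arrays and 7.59 to 7.95 on the dish arrays. Of 4 epithelial genes listed as markers of the labelled cells, the keratin Krt8 was above background on all 9 arrays, whereas the epithelial adhesion genes Epcam and Cdh1 were on none. In the dish only Krt8 of the 4 was above background, so the others did not mark the line there. The keratin genes moved with the groups. Krt18, the partner of Krt8, read 8.24, 7.23 and 8.66 in the lung, 10.99, 11.03 and 11.06 under the skin, and 5.98, 5.91 and 5.27 in the dish, where it was not well above background. Its difference was -2.98 between lung and subcutaneous cells (adjusted p = 0.000236) and 5.31 between subcutaneous and dish cells (adjusted p = 1.78e-06; at least 3.6 from background), and Krt8 differed by -0.69 (adjusted p = 0.128) and 1.63 (adjusted p = 0.00209). Markers of other cells moved with the groups too. The mean over 9 fibroblast markers was 5.36 to 5.87 on lung arrays, 7.25 to 7.52 on subcutaneous arrays and 4.84 to 5.03 on dish arrays, with 7, 6 and 8 of the 9 genes above background on no array of the group. That over 9 alveolar type II markers was 7.62 to 9.0 on lung arrays, 5.73 to 5.95 on subcutaneous arrays and 5.64 to 5.98 on dish arrays, with 4, 7 and 7 of the 9 above background on no array of the group. All 9 endothelial and all 6 neutrophil markers were above background on no array, and 2 of 9 macrophage markers were above it on some lung array. The part of the keratin-marked and other cells and of mRNA length in the results below was not tested, except where a fit with the long-mRNA level is given. In such bulk samples, fewer cells of a type and less RNA per cell cannot be told apart.

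Array signals of many hypoxia response genes were lower in the lung samples than in the subcutaneous samples. Of the 30 members 13 fell in the lung (43.3%, against 5.79% of all genes called lower) and 3 rose (10.0%, against 9.21% of all genes called higher). The median difference over the 30 was -0.63, and that over all genes -0.07. Subcutaneous cells in turn exceeded dish cells in 9 members (30%, against 6.41% of all genes called higher) and were below them in 3 (10.0%, against 6.47% called lower), with a median of 0.47 against -0.01 over all genes. Lung and dish cells differed in 6 members, with 6.78% of all genes called in either direction: 2 rose in the lung (6.67%, against 4.81% of all genes) and 4 fell (13.3%, against 1.97%), with a median of -0.10 against -0.07. The same 7 genes fell in the lung against subcutaneous cells and rose in subcutaneous against dish cells: Ndrg1, Bnip3l, Ankrd37, Mxi1, P4ha1, Plod2 and Egln3. Both comparisons use the subcutaneous arrays, so these are not independent counts. Called in no comparison were 10 members: Ddit4, Hilpda, Stc2, Pfkfb3, Pfkfb4, Ak4, Plod1, Lox, Egln1 and Hif1an. With the array mean of the long-mRNA list as a covariate, 8 members fell and 0 rose between lung and subcutaneous cells, and between lung and dish cells 0 rose and 0 fell. Calls over all 19505 genes dropped in that fit as well. In the first comparison 414 were lower and 562 higher, against 1130 and 1797 without the covariate. In the second 50 were lower and 122 higher, against 384 and 938. Without lung replicate 1 the members that rose in the lung against subcutaneous cells numbered 1. Between lung and dish cells 1 rose without dish replicate 1 or 2 or lung replicate 1 or 2, and 2 fell without dish replicate 2 or 3 or lung replicate 2. Scaling to the upper quartile, which shifts the median over all genes to -0.36 between lung and subcutaneous cells and to -0.40 between lung and dish cells, gave 2 members higher and 16 lower in the first comparison and 1 higher and 8 lower in the second. Over all genes this scaling gave 1157 higher and 2716 lower in the first and 568 higher and 1574 lower in the second.

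**Figure D1:**
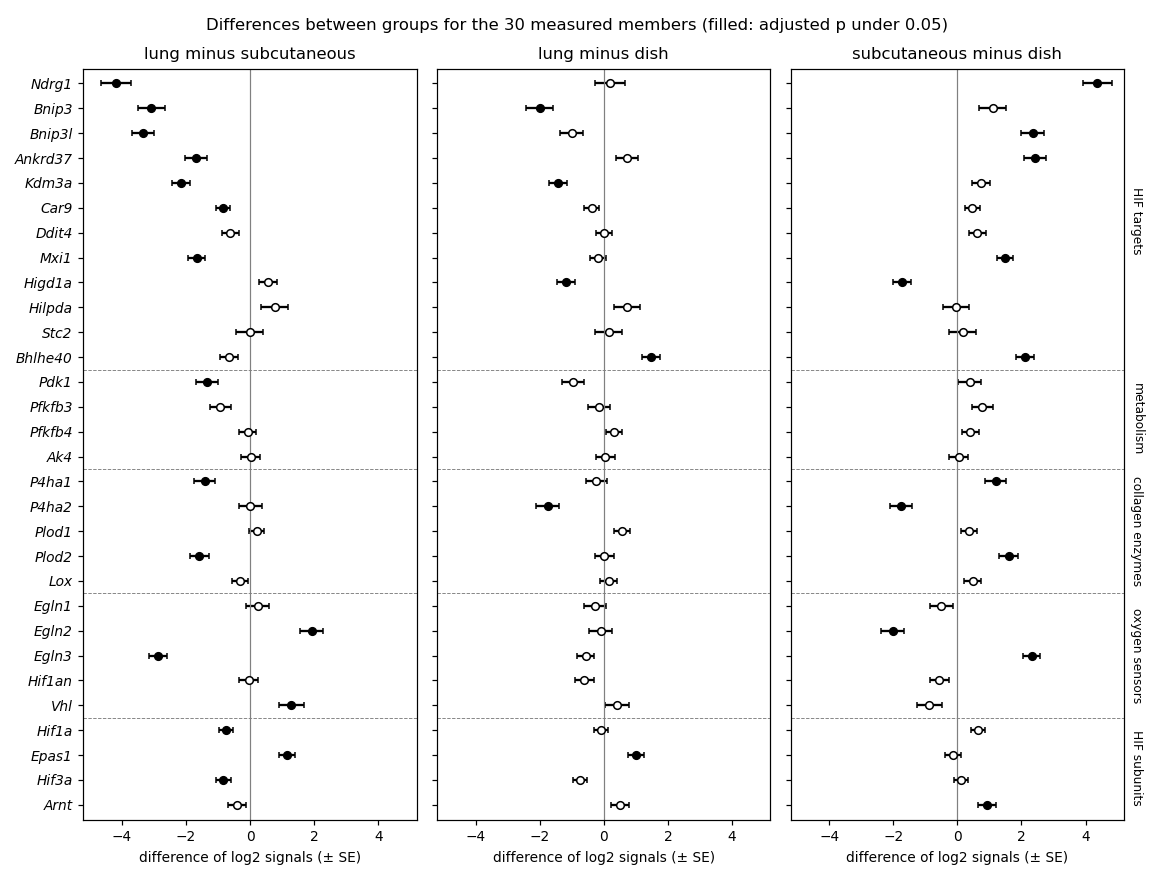
Differences of log2 signals with standard errors for the 30 measured members (rows, grouped by role), lung minus subcutaneous at the left, lung minus dish in the middle and subcutaneous minus dish at the right; filled points have an adjusted p under 0.05. Filled points stand mostly left of 0 at the left (13 of 16) and mostly right of 0 at the right (9 of 12), while the middle panel has 6.

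The target genes of HIF held the largest differences, with 7 of 12 lower and 0 higher in lung cells than in subcutaneous cells. Ndrg1, a stress-induced gene and a standard marker of hypoxia, read 11.00, 11.45 and 11.35 on the lung arrays, 14.62, 16.72 and 14.99 on the subcutaneous arrays, and 11.40, 11.43 and 10.38 on the dish arrays. Every subcutaneous array stood above every lung and dish array, while lung and dish values overlapped. The lung was lower than the subcutaneous group by a log2 difference of -4.18 (SE 0.46, adjusted p = 0.000212 by limma), which is 18.1-fold, and the subcutaneous group was higher than the dish by 4.37 (SE 0.46, adjusted p = 6.22e-05). Without subcutaneous replicate 2, the highest array, these differences were -3.54 (adjusted p = 0.000309) and 3.73 (adjusted p = 0.000102). Between lung and dish the difference was 0.20 with the same standard error (adjusted p = 0.852).

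Both genes of the Bnip3 pair, which encode mitophagy receptors of the outer mitochondrial membrane, fell in the lung. Bnip3l read 10.36, 10.64 and 10.83 in the lung, 13.16, 14.83 and 13.88 under the skin, and 11.79, 11.55 and 11.48 in the dish. The 3 groups did not overlap, with the lung lowest and the subcutaneous arrays highest. Its differences were -3.35 between lung and subcutaneous cells (SE 0.35, adjusted p = 0.000159) and 2.35 between subcutaneous and dish cells (SE 0.35, adjusted p = 0.00069). That between lung and dish was -1.0 (adjusted p = 0.110), and it was called without subcutaneous replicate 2 (-1.0, adjusted p = 0.0424). It was also called from the arrays compared alone (-1.0, adjusted p = 0.0304) and after upper quartile scaling (-1.32, adjusted p = 0.029). The same held with array weights (-1.09, adjusted p = 0.0242) and RIN as a covariate (-1.39, adjusted p = 0.0238). The other alternatives left it uncalled. Bnip3 read 7.57, 7.21 and 7.36 in the lung, close to background, 9.44, 11.64 and 10.33 under the skin, and 9.16, 9.26 and 9.69 in the dish. Here the lung arrays lay below all others, and subcutaneous and dish values overlapped. Bnip3 thus fell in the lung against both, by -3.09 against subcutaneous cells (SE 0.42, adjusted p = 0.000616) and by -1.99 against dish cells (SE 0.42, adjusted p = 0.0141). Without subcutaneous replicate 2 the first was -2.5 (adjusted p = 0.00139). The second call was lost without dish replicate 2 (adjusted p = 0.0544), dish replicate 3 (0.0661) or lung replicate 2 (0.0524). Subcutaneous and dish cells differed by 1.10 (adjusted p = 0.118), and by 1.61 without subcutaneous replicate 1 (adjusted p = 0.0138).

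Ankrd37, a small ankyrin-repeat protein gene and direct HIF target, and Mxi1, a transcriptional antagonist of Myc, followed Ndrg1. Ankrd37 read 9.33, 9.38 and 9.48 in the lung, 10.25, 11.68 and 11.34 under the skin, and 8.48, 8.43 and 9.10 in the dish. It fell in the lung against subcutaneous cells (-1.69, SE 0.34, adjusted p = 0.00526) and rose in subcutaneous against dish cells (2.42, SE 0.34, adjusted p = 0.000451), and the groups did not overlap. With the long-mRNA covariate the fall was -1.82 (adjusted p = 0.0579). Mxi1 read 9.12, 9.29 and 9.25 in the lung, 10.74, 10.94 and 11.00 under the skin, and 9.86, 9.0 and 9.34 in the dish. The subcutaneous arrays stood above the rest, and lung and dish overlapped. The differences were -1.67 between lung and subcutaneous cells (SE 0.26, adjusted p = 0.00114) and 1.49 between subcutaneous and dish cells (SE 0.26, adjusted p = 0.00172).

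Kdm3a, a histone demethylase that itself depends on oxygen, was lowest in the lung. It read 10.04, 9.08 and 9.19 there, 11.59, 11.81 and 11.43 under the skin, and 11.03, 10.62 and 10.96 in the dish, with no overlap between groups. It fell in the lung against subcutaneous cells (-2.17, SE 0.28, adjusted p = 0.000457) and against dish cells (-1.43, SE 0.28, adjusted p = 0.00979), and subcutaneous and dish cells differed by 0.74 (adjusted p = 0.112). Car9, the carbonic anhydrase used as a clinical hypoxia marker, was above background on no array. Its values were 4.63 to 5.18 in the lung, 5.63 to 5.80 under the skin and 5.14 to 5.39 in the dish, and the call between lung and subcutaneous cells (-0.85, adjusted p = 0.0283) was lost without any subcutaneous array or without lung replicate 1 or 2 (-0.74 to -0.88, adjusted p = 0.0541 to 0.112).

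Other targets did not take this course. Higd1a, a mitochondrial inner membrane protein gene, was highest in the dish, at 15.27, 14.90 and 15.30 in the lung, 14.33, 15.19 and 14.30 under the skin, and 16.35, 16.46 and 16.16 in the dish. Lung and subcutaneous arrays overlapped, and both lay below all dish arrays. It fell in subcutaneous cells against dish cells (-1.72, SE 0.28, adjusted p = 0.00119) and in lung cells against dish cells (-1.17, SE 0.28, adjusted p = 0.0238), a call that was lost without any dish array or without lung replicate 1 or 2 (-1.04 to -1.25, adjusted p = 0.0548 to 0.101). Bhlhe40, a transcriptional repressor that also serves the circadian clock, was higher in both transplanted groups. It read 8.18, 8.06 and 8.48 in the lung, 8.31, 9.43 and 8.93 under the skin, and 6.76, 6.79 and 6.79 in the dish, where it was not well above background. It rose by 1.46 in the lung against the dish (SE 0.28, adjusted p = 0.00867) and by 2.11 in subcutaneous cells against the dish (SE 0.28, adjusted p = 0.000341). Counted from background, these are differences of at least 0.82 and at least 1.46. Between lung and subcutaneous cells it differed by -0.65 (adjusted p = 0.146), and by -0.94 without subcutaneous replicate 1 (adjusted p = 0.0377).

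Hilpda, which coats lipid droplets, was well above background everywhere but showed no call. It read 13.26, 11.98 and 12.91 in the lung, 10.92, 12.59 and 12.37 under the skin, and 12.00, 11.97 and 12.04 in the dish, and all groups overlapped (lung minus subcutaneous 0.76, SE 0.41, adjusted p = 0.249). The mTOR inhibitor gene Ddit4 (4.93 to 6.22 over the 9 arrays) and the secreted stanniocalcin Stc2 (2.85 to 4.59) were above background on no array, so the absence of a call says little about them. Ero1a, which helps form disulphide bonds in secreted proteins, read 9.25, 8.94 and 9.18 in the lung, 7.13, 11.00 and 8.04 under the skin, and 9.02, 8.96 and 8.89 in the dish. Its subcutaneous values spread widely around those of the other groups, and without subcutaneous replicate 2 lung cells were higher than subcutaneous cells (1.54, adjusted p = 0.00835) and subcutaneous cells lower than dish cells (-1.37, adjusted p = 0.0134).

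**Figure D2:**
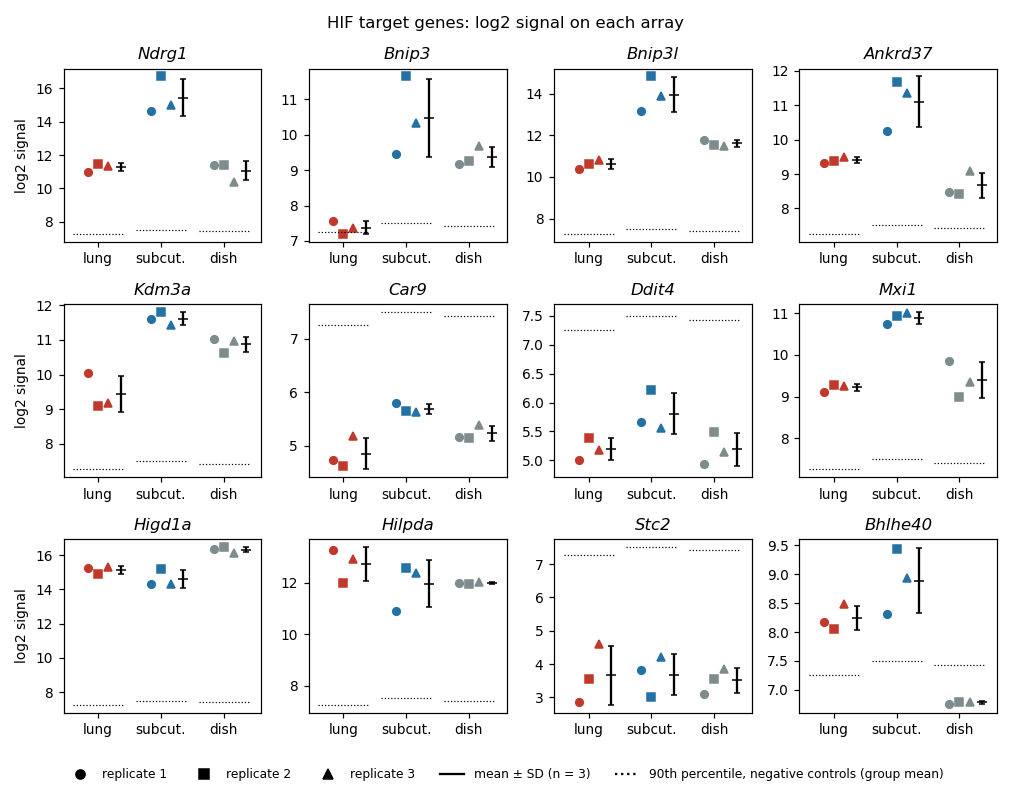
Log2 signal (vertical axes, scaled separately) of the 12 measured HIF target genes on each array, in lung, subcutaneous and dish samples; symbols mark replicates, bars the mean ± SD (n = 3) and dotted lines the 90th percentile of the negative controls. Ndrg1, Bnip3l, Ankrd37 and Mxi1 peak on the subcutaneous arrays, Higd1a on the dish arrays (16.16 to 16.46), and Car9, Ddit4 and Stc2 stay below the dotted line.

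The subcutaneous arrays were not alike in these genes. Of the 13 members that fell in the lung against subcutaneous cells, 10 were highest on subcutaneous replicate 2, 2 on replicate 3 and 1 on replicate 1. Over all 30 members the counts were 21, 5 and 4. The mean over the 12 targets was 9.89, 10.81 and 10.33 on subcutaneous replicates 1, 2 and 3, against 8.80 to 9.09 on lung arrays and 9.14 to 9.19 on dish arrays. RNA integrity numbers (RIN) were 8.60, 7.50 and 7.80 for the subcutaneous samples, 7.90 to 8.30 for the lung and 8.40 to 8.60 for the dish. Without subcutaneous replicate 2, 10 members fell and 3 rose in the lung against subcutaneous cells, and with RIN as a covariate 12 fell and 3 rose.

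Among the metabolic members 1 of 4 fell in the lung against subcutaneous cells, and 0 were called between either group and the dish. Pdk1, a kinase that inhibits pyruvate dehydrogenase, read 7.76, 7.36 and 8.11 in the lung, 8.82, 9.69 and 8.74 under the skin, and 9.01, 9.08 and 8.02 in the dish. The lung arrays lay below the subcutaneous arrays, and the dish overlapped both. It fell by -1.34 (SE 0.35, adjusted p = 0.0213), a call lost without subcutaneous replicate 2 (-1.04, adjusted p = 0.082), lung replicate 1 (-1.35, 0.0676) or lung replicate 2 (-1.14, 0.0869). Pfkfb3, which makes the activator of glycolytic phosphofructokinase, ran from 6.90 to 7.40 in the lung, 7.29 to 8.73 under the skin and 7.03 to 7.54 in the dish. Its lung minus subcutaneous difference was -0.93 (adjusted p = 0.0792), and -1.32 without subcutaneous replicate 1 (adjusted p = 0.0122). Its relative Pfkfb4 was above background on no array. The mitochondrial adenylate kinase gene Ak4 averaged 10.67 ± 0.15 in the lung, 10.65 ± 0.54 under the skin and 10.62 ± 0.27 in the dish (SD, n = 3 each).

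Enzymes that prepare collagen for its triple helix and cross-links split by member. P4ha1, a catalytic subunit of collagen prolyl hydroxylase, read 9.77, 10.02 and 9.20 in the lung, 10.45, 11.58 and 11.22 under the skin, and 10.20, 10.01 and 9.48 in the dish. It fell in the lung against subcutaneous cells (-1.42, SE 0.33, adjusted p = 0.0121), and rose in subcutaneous against dish cells (1.19, SE 0.33, adjusted p = 0.0309), with subcutaneous arrays above all others. The rise was lost without dish replicate 2 or 3 or subcutaneous replicate 2 or 3 (0.94 to 1.24, adjusted p = 0.073 to 0.126) and with RIN as a covariate (0.67, adjusted p = 0.310). Plod2, a lysyl hydroxylase, read 13.38, 12.83 and 12.97 in the lung, 14.50, 15.13 and 14.28 under the skin, and 13.46, 13.03 and 12.62 in the dish. Again the subcutaneous arrays stood alone above the rest, with differences of -1.58 between lung and subcutaneous cells (SE 0.30, adjusted p = 0.00388) and 1.6 between subcutaneous and dish cells (SE 0.30, adjusted p = 0.00308).

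P4ha2, the other catalytic subunit measured, took a different course. It read 7.13, 6.09 and 6.20 in the lung, 6.15, 7.02 and 6.21 under the skin, and 8.70, 7.83 and 8.13 in the dish. It was not well above background in the transplanted groups, and all their values lay below the dish arrays. P4ha2 fell against the dish by -1.75 in the lung (SE 0.35, adjusted p = 0.00995) and by -1.76 under the skin (SE 0.35, adjusted p = 0.00449), which from background is lower by at least 0.95 and at least 0.71. The lysyl hydroxylase Plod1 was called in no comparison (9.41 to 9.80 in the lung, 9.29 to 9.57 under the skin, 8.75 to 9.37 in the dish), and the lysyl oxidase gene Lox was above background on no array. Fibroblasts also make these enzymes, and the fibroblast proteoglycan genes Lum and Dcn were highest under the skin as well. Lum read 7.33, 7.51 and 6.38 in the lung, 13.19, 13.92 and 12.48 under the skin, and 5.61, 5.80 and 5.99 in the dish. Dcn read 13.94, 12.15 and 10.53 in the lung, 16.47, 17.09 and 16.37 under the skin, and 7.32, 6.99 and 6.85 in the dish. Between lung and dish cells P4ha1 differed by -0.23 and Plod2 by 0.02. There Dcn was higher in the lung (5.15, adjusted p = 0.000455), and Lum was not called (1.28, adjusted p = 0.057). The fibroblast gene Dpt was above background on the subcutaneous arrays only (8.54, 7.91 and 7.79). Dpt differed by 0.04 between lung and dish (adjusted p = 0.954) and by 2.35 between subcutaneous and dish cells (adjusted p = 0.000127). The part of fibroblasts in the P4ha1 and Plod2 signals was not tested. The fibroblast collagen genes Col1a1, Col1a2 and Col3a1 were above background on no array.

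**Figure D3:**
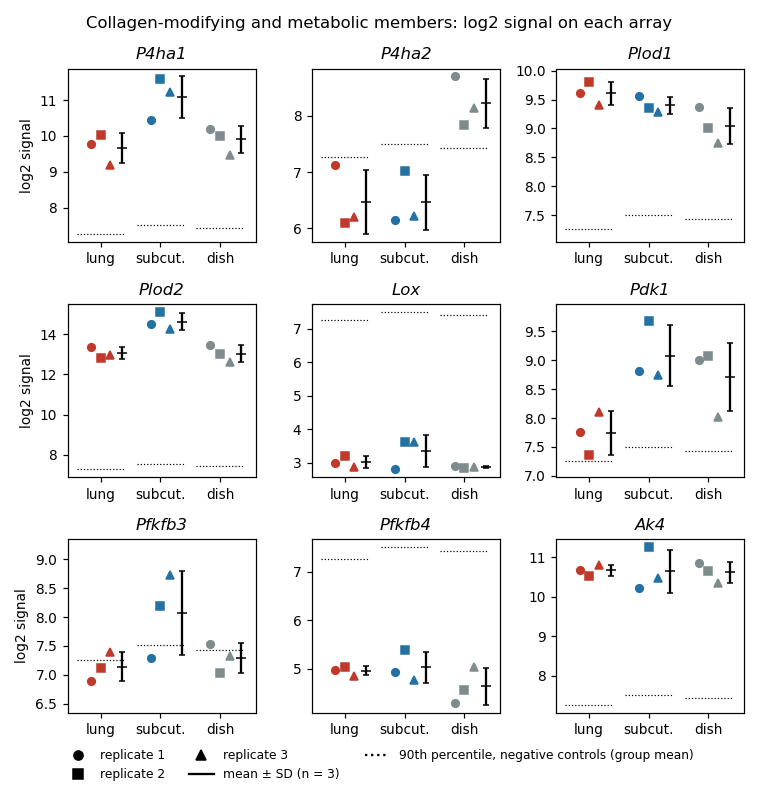
Log2 signal (vertical axes, scaled separately) of the 5 measured collagen-modifying enzymes and the 4 metabolic members on each array, in lung, subcutaneous and dish samples; symbols mark replicates, bars the mean ± SD (n = 3) and dotted lines the 90th percentile of the negative controls. P4ha1 and Plod2 are highest on the subcutaneous arrays, whereas P4ha2 is above the dotted line on the dish arrays only (7.83 to 8.70).

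The 3 prolyl hydroxylases that sense oxygen each showed a different pattern. Egln3, itself a strong HIF target, read 11.67, 11.90 and 11.45 in the lung, 14.17, 15.12 and 14.34 under the skin, and 12.29, 12.24 and 12.15 in the dish. The groups did not overlap, with the subcutaneous arrays highest and the lung arrays lowest. It fell 7.33-fold in the lung against subcutaneous cells (log2 difference -2.87, SE 0.27, adjusted p = 8.73e-05) and rose 4.99-fold in subcutaneous against dish cells (2.32, SE 0.27, adjusted p = 0.000135). Lung and dish cells differed by -0.56 (adjusted p = 0.262). Egln2, which is active in well-oxygenated cells, read 7.60, 7.66 and 6.32 in the lung, 5.23, 4.89 and 5.69 under the skin, and 7.57, 7.17 and 7.14 in the dish. It was lowest under the skin, where it was not well above background, and lung and dish overlapped around the background level. Egln2 rose in the lung against subcutaneous cells (1.92, SE 0.35, adjusted p = 0.00321) and fell in subcutaneous against dish cells (-2.02, SE 0.35, adjusted p = 0.0019). With the long-mRNA covariate the rise was 1.09 (adjusted p = 0.156). The Egln2 means of lung and dish (7.19 and 7.3) did not exceed the background of the subcutaneous arrays. No least difference counted from background could therefore be given for either comparison. Egln1, the main hydroxylase of HIF in most cells, read 12.24, 12.24 and 12.05 in the lung, 11.51, 12.86 and 11.47 under the skin, and 12.82, 12.49 and 12.05 in the dish. All 3 groups overlapped, and no difference was called (lung minus subcutaneous 0.23, SE 0.35, adjusted p = 0.720).

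The other restraints on HIF lay near or below background. Vhl read 7.36, 6.86 and 7.44 in the lung, 5.33, 6.94 and 5.51 under the skin, and 6.59, 7.19 and 6.61 in the dish. It rose in the lung against subcutaneous cells (1.29, SE 0.38, adjusted p = 0.0373), although subcutaneous replicate 2 stood above lung replicate 2. Leaving out dish replicate 3, subcutaneous replicate 1 or 3, or lung replicate 1 or 3 ended the call (0.99 to 1.29, adjusted p = 0.0511 to 0.126), as did quantile normalization (1.15, adjusted p = 0.0762) and upper quartile scaling (1.0, adjusted p = 0.076). Subcutaneous and dish cells differed by -0.87 (adjusted p = 0.170), and by -1.37 without subcutaneous replicate 2 (adjusted p = 0.0123). Hif1an, the asparaginyl hydroxylase, read 6.41, 6.71 and 5.68 in the lung, 6.51, 6.07 and 6.36 under the skin, and 7.03, 6.61 and 7.00 in the dish, never above background and with no call.

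Of the HIF subunits, only Hif1a was well above background on all 9 arrays. It read 13.94, 14.05 and 14.16 in the lung, 14.83, 14.93 and 14.62 under the skin, and 14.23, 13.95 and 14.28 in the dish. The subcutaneous arrays stood above all others, by less than 1 on the log2 scale. Hif1a fell in the lung against subcutaneous cells by -0.75 (SE 0.22, adjusted p = 0.0407). The call was lost without any array other than dish replicates 1 and 3 (-0.68 to -0.83, adjusted p = 0.051 to 0.145), and with the replicate number as a block (adjusted p = 0.0633). Subcutaneous and dish cells differed by 0.64 (adjusted p = 0.0816). Arnt, the stable partner, read 7.91, 7.93 and 8.04 in the lung, 8.72, 8.65 and 7.70 under the skin, and 7.57, 7.33 and 7.42 in the dish. It rose in subcutaneous against dish cells by 0.92 (SE 0.28, adjusted p = 0.0476), which was lost without any 1 of the 9 arrays other than subcutaneous replicate 3 (0.74 to 0.98, adjusted p = 0.052 to 0.150) and with the replicate number as a block (adjusted p = 0.0566).

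The alpha subunit genes Epas1 and Hif3a were above background on no array. Epas1, best known from endothelium and alveolar type II cells, read 4.78, 4.84 and 4.20 in the lung, 3.49, 3.60 and 3.32 under the skin, and 3.51, 3.42 and 3.86 in the dish. All lung values lay above the others, and the calls for lung against subcutaneous cells (1.14, SE 0.25, adjusted p = 0.00909) and lung against dish cells (1.01, SE 0.25, adjusted p = 0.030) concern signal in the range of the negative controls. The first was lost without lung replicate 1 (1.05, adjusted p = 0.0507), the second without dish replicate 1 or 2 or lung replicate 1 or 2 (0.89 to 0.96, adjusted p = 0.0762 to 0.129). Hif3a, whose products can restrain the other alpha subunits, read 4.35, 4.39 and 4.36 in the lung, 5.14, 5.15 and 5.36 under the skin, and 4.85, 5.35 and 5.12 in the dish. It fell in the lung against subcutaneous cells (-0.84, SE 0.23, adjusted p = 0.0243), a call lost without subcutaneous replicate 3 or lung replicate 1 or 2 (-0.77 to -0.86, adjusted p = 0.0642 to 0.0847).

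**Figure D4:**
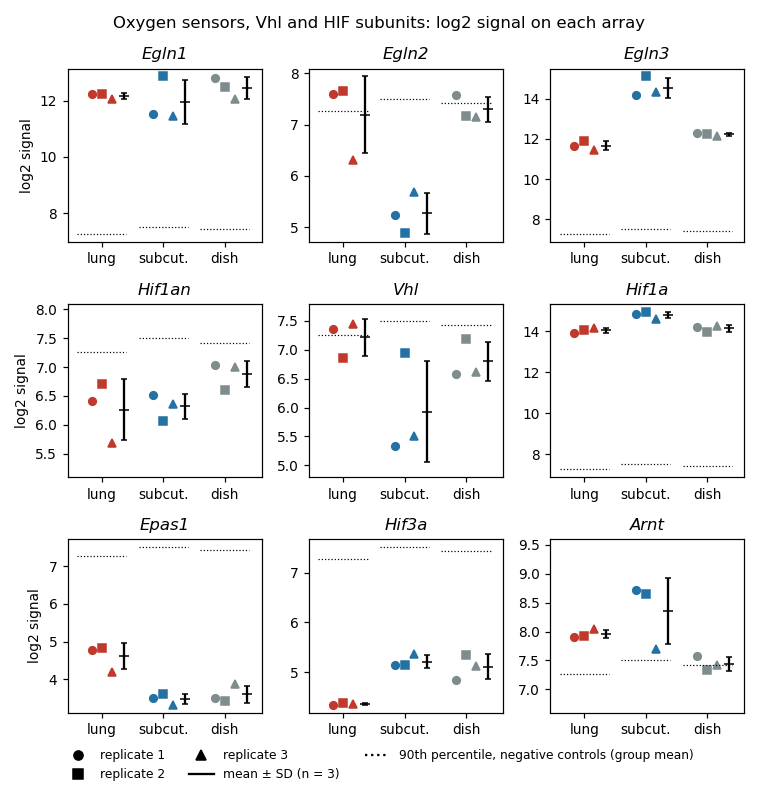
Log2 signal (vertical axes, scaled separately) of the 5 members that sense oxygen or restrain HIF and the 4 HIF subunits on each array, in lung, subcutaneous and dish samples; symbols mark replicates, bars the mean ± SD (n = 3) and dotted lines the 90th percentile of the negative controls. Egln3 is highest and Egln2 lowest on the subcutaneous arrays, Egln1 overlaps between all groups, and Hif1an, Epas1 and Hif3a stay below the dotted line.

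The rest of the pathway was read from 2 further lists, 59 measured HIF targets outside the member set and 15 measured genes that act on HIF itself. Of the 59 targets, 10 fell and 4 rose in the lung against subcutaneous cells, 8 fell and 4 rose in the lung against the dish, and 11 rose and 5 fell in subcutaneous against dish cells. Their median differences were -0.15, -0.31 and -0.08. Set against all genes in the same comparison, 16.9% were lower (5.79% of all genes) and 6.78% higher (9.21%) between lung and subcutaneous cells. Between lung and dish cells 13.6% were lower (1.97%) and 6.78% higher (4.81%), and between subcutaneous and dish cells 18.6% were higher (6.41%) and 8.47% lower (6.47%). Adm, the vasodilator peptide adrenomedullin, read 11.82, 12.60 and 11.82 in the lung, 14.18, 16.75 and 15.32 under the skin, and 13.36, 13.27 and 13.50 in the dish. The 3 groups did not overlap, and subcutaneous cells were highest (lung minus subcutaneous -3.34, SE 0.48, adjusted p = 0.000874, and subcutaneous minus dish 2.04, SE 0.48, adjusted p = 0.0136, or 1.99 and 0.0538 without dish replicate 2). With RIN as a covariate the second difference was 0.92 (adjusted p = 0.114). Without subcutaneous replicate 2 the pair was -2.67 (adjusted p = 0.00183) and 1.37 (adjusted p = 0.0339), and without subcutaneous replicate 1 it was -3.96 and 2.66. The angiogenic factor Pgf read 9.80, 7.96 and 6.88 in the lung and 10.91, 14.09 and 11.54 under the skin. In the dish it read 7.88, 7.56 and 5.59, close to or below background. It was above background on 2 lung and 2 dish arrays. Pgf fell in the lung against subcutaneous cells by -3.96 (adjusted p = 0.00736) and rose in subcutaneous against dish cells by 5.17 (adjusted p = 0.00126). Without subcutaneous replicate 2 these were -3.01 and 4.22, both still called, and with each other array left out they reached -4.76 (without lung replicate 1) and 5.81 (without subcutaneous replicate 1). The atypical cyclin Ccng2 fell in the lung against subcutaneous cells by -3.06 (adjusted p = 0.000548).

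Cited2, which competes with HIF for its coactivators, had its lowest values in the lung. It read 14.88, 15.94 and 14.64 in the lung, 16.95, 17.26 and 16.96 under the skin, and 17.17, 16.83 and 17.06 in the dish, and fell by -1.91 against subcutaneous cells (adjusted p = 0.00173) and by -1.87 against the dish (adjusted p = 0.00414). The early-response genes Ier3 and Dusp1 rose in both transplanted groups. Ier3 was higher than in the dish by 2.71 in the lung (adjusted p = 0.000143) and by 2.40 under the skin (adjusted p = 9.54e-05), at least 1.15 and at least 0.83 from background, and Dusp1 by 2.67 (adjusted p = 0.000608) and 1.93 (adjusted p = 0.00157). Tfrc, the transferrin receptor gene, fell in both against the dish, by -2.09 in the lung (adjusted p = 0.00835) and by -2.96 under the skin (adjusted p = 0.000362; at least 1.79 lower from background). Vegfa, the main angiogenic HIF target and named after its values were seen, read 12.49, 12.14 and 11.42 in the lung, 12.72, 14.07 and 12.48 under the skin, and 13.21, 12.86 and 13.23 in the dish. Only lung replicate 1 and subcutaneous replicate 3 overlapped between those groups, and no comparison was called (lung minus subcutaneous -1.07, adjusted p = 0.0851).

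Of the 15 genes that act on HIF, 6 rose and 0 fell in the lung against subcutaneous cells (40.0%, against 9.21% of all genes called higher), with a median of 0.72. That count was 1 without lung replicate 1, 1 after upper quartile scaling and 0 with the long-mRNA covariate, and with each array left out it ran from 1 to 6. The genes of this list other than Crebbp are named after their values were seen. They include Rbx1 (0.96) and Eloc (0.67), subunits of the ubiquitin ligase that Vhl serves, and the coactivator genes Crebbp (1.95) and Ep300 (1.20). The Eloc call (adjusted p = 0.0476) was lost without any 1 array (0.63 to 0.7, adjusted p = 0.0571 to 0.125). The Rbx1 call (adjusted p = 0.00995) was lost after upper quartile scaling (0.67, adjusted p = 0.0683) and with the long-mRNA covariate (1.02, adjusted p = 0.0856). It was also lost without lung replicate 1 (0.92, adjusted p = 0.0507). Ep300 read 8.96, 9.53 and 7.92 in the lung and 7.43, 7.98 and 7.39 under the skin, so that lung replicate 3 overlapped the subcutaneous arrays, and its difference with the long-mRNA covariate was 0.11 (adjusted p = 0.918). Crebbp read 13.10, 13.48 and 11.36 in the lung, 10.48, 11.04 and 10.59 under the skin, and 10.96, 10.67 and 10.92 in the dish. Without lung replicate 3 its differences were 2.59 from subcutaneous and 2.44 from dish cells. On the lung arrays it followed the list of very long mRNAs, with replicate 3 lowest in both, and with that list as a covariate its difference from subcutaneous cells was 0.55 (adjusted p = 0.398). Against the dish it rose by 1.80 in the lung (adjusted p = 0.0244), which was lost without any dish array or without lung replicate 1 or 2 (1.38 to 1.85, adjusted p = 0.0551 to 0.111). In subcutaneous against dish cells 2 of the 15 fell (13.3%, against 6.47% of all genes called lower) and 0 rose. The 2 were Rbx1 (-0.82) and the glycolytic pyruvate kinase gene Pkm (-0.93). Their number was 0 without any 1 dish array or without subcutaneous replicate 2. With RIN as a covariate or the replicate number as a block it was 1.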

How the data were processed

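RNA of 9 samples was measured on a 1-colour whole-transcript array (biotin-labelled sense-strand cDNA, per the labels' protocols). The authors deposited 1 table of log2 values with 28846 rows, of which 22206 are gene features and 5222 negative controls. For software, normalization and genome build nothing is stated (not given in the sources used here), and a shift common to most genes cannot be told from scaling. Arrays carry no counts, and their number limits the precision. The platform annotation gave 19572 features 1 symbol and 0 several. For 55 genes with several features the one with the highest mean was used, which left 19505 genes.

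The test was that of limma 3.58.1 under R 4.3.3 (lmFit, then eBayes, with 6 residual and 7.08 prior degrees of freedom), on 3 group means from all 9 arrays, two-sided, with Benjamini-Hochberg adjustment over all genes. The procedure was tested on simulated data. Background was the 90th percentile of an array's negative controls. A gene above it on no array of a group was called not well above background there, and "at least" counts from the mean of that percentile. The alternatives were quantile normalization, upper quartile scaling, a filter on dim genes, an intensity trend with robust fitting, array weights, the mean of a gene's features, the 2 groups alone, the replicate number as a block, RIN or the long-mRNA level as a covariate, and each array left out. Members and lists were chosen with earlier results of these data known. Values on every array are given for members called with a difference of at least 1, and for all subunits and sensors, and in each comparison the 5 called genes of the further lists that differed most are named. No pair of arrays held identical values.

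Same-numbered samples were checked for pairing: the correlation of their deviations from group means ran from -0.057 to 0.085 over 9 pairs. Differently numbered samples ran from -0.138 to 0.098. The numbers thus gave no sign of pairing, but with 3 arrays a group the check cannot exclude shared handling.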

Additional observations from a re-analysis of the deposited data

How the results depend on the processing

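Of the 34 calls made for members, 18 were lost under no alternative that tested the gene: 8 of 16 between lung and subcutaneous cells (Ndrg1, Bnip3, Bnip3l, Kdm3a, Mxi1, P4ha1, Plod2 and Egln3), 0 of 6 between lung and dish cells and 10 of 12 between subcutaneous and dish cells. In the last comparison P4ha1 and Arnt were the calls lost. The 10 include Egln2, which the filter on dim genes left untested and whose signal lay around or below background. The long-mRNA covariate ended all 6 calls between lung and dish cells. It varies mostly between lung and the other groups, so it also takes up part of that contrast.

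Counts of members that moved by more than 1.5 times were these. Apart from genes that the filter on dim genes left untested, their cause was not tested. With the long-mRNA covariate and after upper quartile scaling, the counts over all genes given above moved in the same directions. Members higher in lung than in subcutaneous cells were 0 after the filter on dim genes and 0 with the long-mRNA covariate, against 3, and members lower were 8 with that covariate, against 13. The filter removed all 3 (Egln2, Vhl and Epas1) before testing, so its 0 is no failed call. Members higher in lung than in dish cells were 1 after upper quartile scaling, after the dim filter and with RIN as a covariate, and 0 with the long-mRNA covariate, against 2. Here too the dim filter left Epas1 untested. Members lower there were 8 after upper quartile scaling, 7 with array weights and 0 with the long-mRNA covariate, against 4.

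For the 74 other pathway genes, those higher in lung than in subcutaneous cells were 3 after upper quartile scaling, 6 from the arrays compared alone and 0 with the long-mRNA covariate, against 10, and those lower 18 after upper quartile scaling, against 10. Between lung and dish cells 13 were higher with array weights and 1 with the long-mRNA covariate, against 5, and 19, 14, 13 and 2 were lower after upper quartile scaling, the dim filter, array weights and the long-mRNA covariate, against 8. Between subcutaneous and dish cells 6 were higher with RIN as a covariate, against 11. Crebbp reversed between lung and dish cells with the long-mRNA covariate (-0.09, adjusted p = 0.977 by limma).

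With each array left out in turn, members higher and lower numbered 1 to 3 and 9 to 13 between lung and subcutaneous cells, 1 to 2 and 2 to 5 between lung and dish cells, and 7 to 10 and 3 to 4 between subcutaneous and dish cells. Other pathway genes numbered 1 to 11 and 7 to 10, 3 to 9 and 4 to 11, and 8 to 13 and 5 to 8. The lowest of the first, 1, came without lung replicate 1.

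The replicate number as a block gave 3 members higher and 12 lower between lung and subcutaneous cells, 2 and 4 between lung and dish cells, and 8 and 3 between subcutaneous and dish cells. The labels do not state what same-numbered samples share beyond the number.

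Of all genes called, 61.4% were higher in lung than in subcutaneous cells, but 29.9% after upper quartile scaling and 54.1% after quantile normalization. Between lung and dish cells these shares were 71.0%, 26.5% and 54.8%. The balance of directions over all genes thus depends on scaling. With 3 arrays a group, and 8 of 30 members above background on no array, a missing call does not show equal levels.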
